A study of Homo sapiens with 16 samples.

Results

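This account concerns 9 genes of insulin-like growth factor (IGF) signalling in U2OS cells, a human line labelled as a sarcoma and known as an osteosarcoma line. They are the ligand gene IGF2, the receptor genes IGF1R and IGF2R, and the binding protein genes IGFBP2, IGFBP3, IGFBP4, IGFBP5, IGFBP6 and IGFBP7. The genes were chosen by family membership, matched by symbol to Ensembl identifiers, and are 9 of the 60666 genes in the gene tables. Of the 9, 7 passed the low-count filter, as did 22597 genes in all; IGFBP2 and IGFBP3 did not pass.

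The study compared 4 stable lines, all grown in puromycin and all U2OS: a line carrying the empty vector plko.puro, described as wild type, a PIP4K2A knockdown line, a PIP4K2B knockdown line, and a line with both knockdowns (the double knockdown). PIP4K2A and PIP4K2B encode lipid kinases that phosphorylate phosphatidylinositol 5-phosphate. Each line was sequenced both untreated and 6 h after UV-C irradiation (30 J/m2). That makes 8 groups of 2 libraries. The labels do not state that replicates are separate cultures or that a line is more than 1 clone, so the p-values measure the spread between these libraries, which may be technical. The control line carries an empty vector, so the loss of the kinase, other effects of a hairpin and differences between lines cannot be told apart.

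One of the 16 libraries, empty-vector untreated replicate 1, stood apart from all the others. It held 1.28 M counts, against 28.0 to 39.9 M in the other 15, and 14.6% of its counts were mitochondrial, against 2.20% to 3.43%. It was set aside, which leaves the untreated empty-vector group with 1 library, assumed to vary like the other groups. With it included, edgeR's quasi-likelihood test called 0 to 2 of the 7 IGF genes in each comparison. The share of all genes called in that fit is not reported here. PIP4K2A read 15.5 and 18.2 CPM (counts scaled to the library total) in the untreated PIP4K2A knockdown libraries against 62.9 in the empty vector. PIP4K2B read 26.5 and 23.7 CPM in the untreated PIP4K2B knockdown libraries against 107 in the empty vector. The double knockdown libraries read 22.9 and 22.9 CPM for PIP4K2A and 17.3 and 19.3 CPM for PIP4K2B. PIP4K2A was thus 0.46 higher on the log2 scale (SE 0.0945, adjusted p = 0.0112, edgeR) in the double than in the single PIP4K2A knockdown. The osteoblast genes SP7 and IBSP averaged under 0.1 CPM, 4 of 8 osteoblast lineage markers averaged at least 1 CPM, and all 5 mesenchymal markers did. No blood marker averaged 1 CPM. After scaling for library composition, PTPRC, CD4 and CD8A each passed 1 CPM in at least 1 library, reaching 1.13, 1.02 and 1.23. Of 11 epithelial markers, 7 averaged at least 1 CPM. Their summed level ran from 276 to 502 CPM in untreated libraries and from 332 to 945 CPM after UV. Of the 9 epithelial markers tested against the untreated empty vector, 2 were higher and 1 lower in the PIP4K2A knockdown, 1 higher and 2 lower in that of PIP4K2B, and 2 higher and 0 lower in the double knockdown. After UV 5, 2 and 3 were higher and 1, 3 and 1 lower. The keratin KRT8 was higher in the 3 untreated lines by 1.28, 1.13 and 1.35 (log2). The tight-junction gene CLDN4 differed by -0.81, -0.79 and -0.60, the last with adjusted p = 0.0542 by edgeR, and the keratin KRT14 fell by 2.42 on the log2 scale in the PIP4K2B knockdown. The part of these markers in the IGF results was not tested.

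IGF1 and IGF2 are secreted growth factors that act through IGF1R, a receptor tyrosine kinase that feeds the PI3K and AKT pathway. IGF binding proteins hold the ligands in the extracellular fluid, where they can withhold them from the receptor or carry and protect them, and proteases such as PAPPA release the ligand by cutting the binding protein. IGF2R, also the cation-independent mannose 6-phosphate receptor, takes up IGF2 for breakdown in lysosomes and has no kinase activity. Osteoblasts and bone tumours secrete several binding proteins, and IGFBP5 is known for its abundance in bone.

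Promoters are shown for 4 members that mark the range of behaviour in these cells. IGFBP4 had the lowest levels relative to the empty vector, IGFBP5 was the most abundant binding protein, IGFBP3 was not detected above its counting floor, and IGF1R had lower levels after UV. The sequences are the 250 bases before the gene start listed by RefSeq on GRCh38.p14, given 5′ to 3′ on the gene's strand. Capitals mark matches, on either strand, to the TATA box or the GC box, whose letters follow the sequences. The IGFBP3 window lies inside the gene as the GENCODE annotation draws it, which reaches 45921874 on chromosome 7.
IGFBP4, chr17:40443200-40443449, plus strand: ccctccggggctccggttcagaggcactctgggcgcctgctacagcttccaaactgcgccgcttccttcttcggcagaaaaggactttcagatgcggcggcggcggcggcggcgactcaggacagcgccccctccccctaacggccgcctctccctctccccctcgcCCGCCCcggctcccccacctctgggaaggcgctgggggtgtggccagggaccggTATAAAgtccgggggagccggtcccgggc
IGFBP5, chr2:216695550-216695799, minus strand: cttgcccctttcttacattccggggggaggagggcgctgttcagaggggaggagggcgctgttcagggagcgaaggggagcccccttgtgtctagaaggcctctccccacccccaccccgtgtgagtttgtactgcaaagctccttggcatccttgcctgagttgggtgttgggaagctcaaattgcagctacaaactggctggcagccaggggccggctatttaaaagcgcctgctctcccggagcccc
IGFBP3, chr7:45921273-45921522, minus strand: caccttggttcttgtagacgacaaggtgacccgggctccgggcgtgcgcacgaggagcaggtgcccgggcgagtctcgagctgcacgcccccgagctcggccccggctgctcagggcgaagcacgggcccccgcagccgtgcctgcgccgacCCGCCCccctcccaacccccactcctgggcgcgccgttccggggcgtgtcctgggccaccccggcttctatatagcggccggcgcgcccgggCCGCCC
IGF1R, chr15:98648289-98648538, plus strand: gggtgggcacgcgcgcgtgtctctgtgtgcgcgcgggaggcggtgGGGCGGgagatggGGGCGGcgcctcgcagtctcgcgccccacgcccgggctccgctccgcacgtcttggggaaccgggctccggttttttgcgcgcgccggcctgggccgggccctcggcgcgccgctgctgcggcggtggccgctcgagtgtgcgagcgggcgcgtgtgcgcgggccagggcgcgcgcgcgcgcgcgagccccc

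Each motif was searched on both strands, and the same search was run on the 35116 RefSeq promoters of that length. The IGFBP4 window holds 1 TATA box, searched as TATAAA, which 10.7% of all promoters hold. It also holds 1 GC box, searched as GGGCGG and present in 42.6% of promoters. The CCAAT box was searched by the letters of its name and is present in 32.0% of promoters. The AP-1 site, searched as TGACTCA, is present in 4.2% of promoters, and the E-box, searched as CACGTG, is present in 6.35%. The IGFBP5 window holds none of the 5 motifs and 8 CpG dinucleotides, more than 43.7% of promoters, against a median of 11. The IGF1R window holds 2 GC boxes, no TATA box and 48 CpG, more than 99.7% of promoters. The IGFBP3 window holds 2 GC boxes and 32 CpG, more than 90.5% of promoters. IGF2R, not printed, holds 6 GC boxes, 3 E-boxes and 33 CpG. IGFBP6 has 1 GC box and 9 CpG. The AP-1 site occurs in none of the windows of the 7 matched members, and the CCAAT box in 1 window of IGFBP2. These are matches of letters and not measured binding.

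Levels of different genes can be compared only per length, as TPM (transcript abundance scaled for length and depth) in the authors' tables. IGFBP5 was the most abundant binding protein in all 15 libraries, at 20.7 to 41.6 TPM (median 31.8). IGF1R ran from 13.3 to 40.3 TPM and IGF2R from 16.8 to 33.3 TPM. The ligand IGF2 ran from 3.66 to 36.3 TPM. IGFBP6 ran from 5.57 to 12.1 TPM, IGFBP7 from 3.0 to 12.5 TPM and IGFBP4 from 1.25 to 12.03 TPM. IGFBP5 was thus in the range of the receptors, while the other detected binding proteins were lower. IGF1, the other ligand, stayed at or under 0.918 CPM, so IGF2 was the IGF ligand gene with appreciable transcript in these cells.

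IGFBP2 and IGFBP3, which carry IGFs in blood and tissue fluid, gave 14 and 20 counts in all over the 15 libraries, out of 482.8 M. Each library held 0 to 2 counts of IGFBP2 and 0 to 3 counts of IGFBP3. A count of 0 allows up to 3 counts, or 0.0752 to 0.107 CPM depending on the library, and that limit covers counting error only. No fold is given, since every group was at or under this floor. IGFBP2 and IGFBP5 are neighbours on chromosome 2, at 216632828 to 216664436 and 216672105 to 216695525 on GRCh38, and were respectively among the lowest and the highest of the 9 genes. IGFBP1 also stayed under the floor, at no more than 0.0289 CPM.

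The 4 detected binding proteins were mixed in different proportions in the 4 lines. In the empty vector IGFBP4 made up 20.4% of the summed binding protein TPM in the untreated library and 25.7% in both UV libraries. In the PIP4K2A knockdown it made up 2.56% to 3.40%, in the PIP4K2B knockdown 6.33% to 8.53%, and in the double knockdown 7.88% to 9.78%. IGFBP7 took 5.96% to 7.06% in the empty vector, 15.6% to 25.6% in the PIP4K2A knockdown, 21.1% to 23.5% in the PIP4K2B knockdown and 8.99% to 11.9% in the double knockdown. No empty-vector library overlapped any knockdown library in either share.

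**Figure D1:**
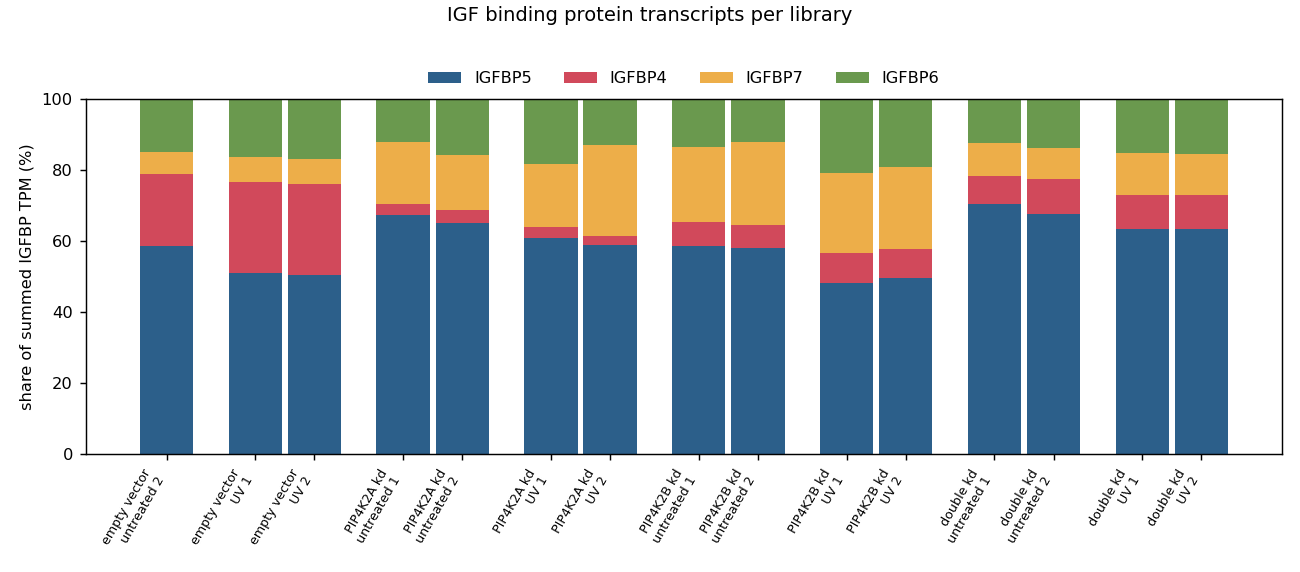
Stacked bars give each binding protein's share, in percent, of the summed TPM of the binding proteins in each of the 15 libraries; the 2 undetected genes are too small to see. IGFBP5 is the largest share in every bar, and IGFBP4 shrinks from 20.4% or more in the empty vector to 9.78% or less in the knockdown lines.

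In what follows a level is in composition-scaled CPM, that is, CPM of a library size adjusted by the trimmed mean of M values (TMM). Differences are log2 fold changes from edgeR's quasi-likelihood test over the 15 libraries, with p-values adjusted over all 22597 genes by the Benjamini-Hochberg method, and a gene is called at an adjusted p under 0.05. In bulk RNA, fewer cells carrying a transcript and less transcript per cell cannot be told apart.

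IGF2 was higher in both single knockdown lines than in the empty vector, and the double knockdown line had the lowest levels of all 4. In untreated cells the empty-vector library read 32.7 scaled CPM. The PIP4K2A knockdown libraries read 63.9 and 75.3, those of the PIP4K2B knockdown 62.9 and 68.1, and those of the double knockdown 21.6 and 20.4. The single knockdowns lay above the empty vector and overlapped each other, and both double knockdown libraries lay below it. After UV the empty vector read 47.4 and 53.9, the PIP4K2A knockdown 165 and 102, the PIP4K2B knockdown 117 and 119, and the double knockdown 31.3 and 35.7. The order of the lines was the same as without UV, and the first PIP4K2A replicate stood well above the second.

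Against the untreated empty vector, IGF2 rose by 1.09 (SE 0.225, adjusted p = 0.0111, edgeR) in the PIP4K2A knockdown and by 1.00 (SE 0.224, adjusted p = 0.0127) in the PIP4K2B knockdown. After UV the differences were 1.40 (SE 0.175, adjusted p = 0.000187) and 1.22 (SE 0.175, adjusted p = 0.000392). The double knockdown differed from the empty vector by -0.64 (SE 0.216) untreated, with adjusted p = 0.111, and by -0.59 (SE 0.177) after UV, with adjusted p = 0.0390. The call after UV was lost, with values from -0.69 to -0.50, in 10 of the fits that left out 1 library. The double knockdown fell below the single knockdowns in all 4 direct comparisons: by 1.73 (SE 0.181) and 1.64 (SE 0.181) on the log2 scale untreated, and by 1.99 (SE 0.180) and 1.82 (SE 0.179) after UV, with adjusted p from 2.22e-05 to 0.000123. IGF2 was therefore about 3.12 to 3.97-fold lower with both knockdowns than with either one.

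PIP4K2A knockdown after UV, replicate 1, also differed in which IGF2 transcripts its reads were assigned to. The length weighted by transcript was 2801 bases there and 3795 to 4309 bases in the other 14 libraries, so its TPM of 36.3 against 13.9 in replicate 2 reflects both counts and length. Without that library the IGF2 difference from the empty vector after UV was 0.99, and without replicate 2 it was 1.70, past the threshold both times. INS-IGF2, the read-through gene that shares exons with IGF2, was listed at 0 counts in the libraries tested, and the antisense gene IGF2-AS stayed at or under 0.217 scaled CPM. H19, the non-coding gene beside IGF2 in the same imprinted domain, read 2.21 scaled CPM in the untreated empty vector. It read 3.71 ± 0.000705 (SD, n = 2) in the PIP4K2A knockdown, 3.14 ± 0.316 in the PIP4K2B knockdown and 1.67 ± 0.0869 in the double knockdown. H19 was lower in the double knockdown than in the single knockdowns by 1.15 and 0.92 on the log2 scale (adjusted p = 0.0177 and 0.0328), and its differences from the untreated empty vector did not pass the test.

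**Figure D2:**
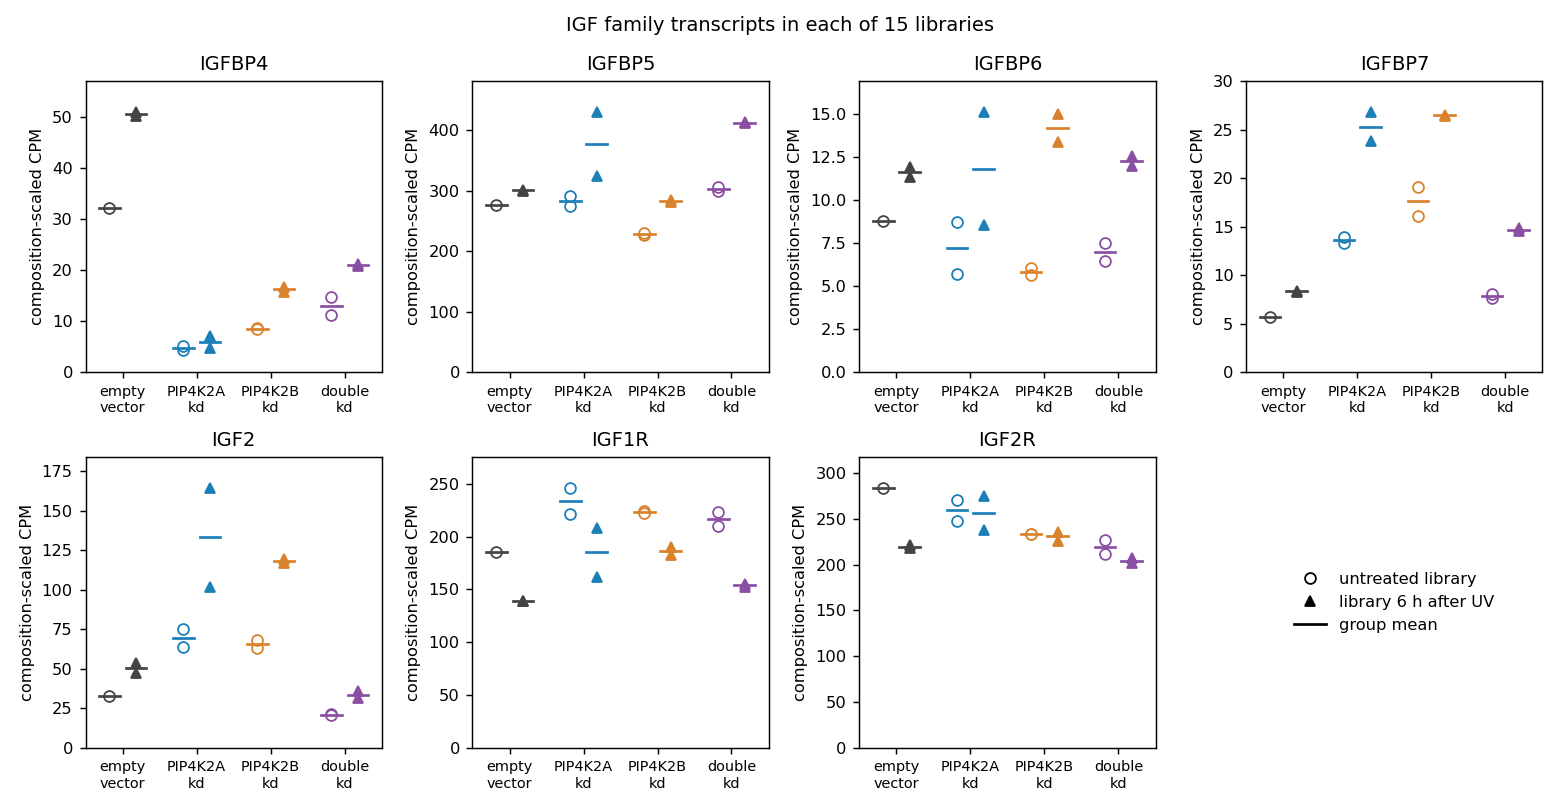
Each panel shows 1 gene; circles are untreated libraries, triangles libraries 6 h after UV, and lines group means, in composition-scaled CPM. IGFBP4 is highest in the empty vector, IGFBP7 and IGF2 are highest in the single knockdowns, and IGF1R triangles sit below the circles of the same line.

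IGF1R and IGF2R differed little between lines. IGF1R, the signalling receptor, read 186 scaled CPM in the untreated empty vector, 222 and 246 in the PIP4K2A knockdown and 225 and 223 in that of PIP4K2B. The double knockdown libraries read 210 and 223. The knockdown libraries all lay above the single empty-vector library and overlapped one another, and none of the 3 untreated differences (0.33, 0.27 and 0.22) passed the test. After UV the empty vector read 139 and 139, the PIP4K2A knockdown 208 and 162, the PIP4K2B knockdown 190 and 183, and the double knockdown 153 and 155. IGF1R was then 0.42 higher (SE 0.106, adjusted p = 0.0146, edgeR) in the PIP4K2A knockdown and 0.43 higher (SE 0.106, adjusted p = 0.0136) in the PIP4K2B knockdown. The first of these was 0.21 (adjusted p = 0.0696) without PIP4K2A knockdown replicate 1, and each call was also lost when either UV empty-vector library was left out, and the second without PIP4K2B knockdown UV replicate 1. The double knockdown difference after UV was 0.15 (95% interval -0.08 to 0.38).

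IGF2R, the scavenging receptor, read 284 scaled CPM in the untreated empty vector, 248 and 270 in the PIP4K2A knockdown and 233 and 233 in that of PIP4K2B. The double knockdown libraries read 211 and 227. All untreated knockdown libraries were below the empty-vector library. After UV the empty vector read 221 and 218, the PIP4K2A knockdown 275 and 237, the PIP4K2B knockdown 236 and 226, and the double knockdown 202 and 207. Both single knockdowns then lay above the empty vector and the double knockdown below it, with no overlap, yet no difference from the empty vector passed the test in either state. The untreated double knockdown came nearest, at -0.37 (SE 0.105, adjusted p = 0.0580, edgeR). The IGF2R call among the lines was the one between the double and PIP4K2A knockdowns after UV, at -0.33 (SE 0.0874, adjusted p = 0.0198). That call was lost without PIP4K2A knockdown UV replicate 1, where the difference was -0.20, and without either double knockdown UV library.

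IGFBP4, a binding protein that mostly withholds IGF from its receptor, was lower in every knockdown line than in the empty vector. In the 3 untreated comparisons with the empty vector its differences were the largest among the 7 tested genes. The untreated empty vector read 32.1 scaled CPM. The PIP4K2A knockdown read 4.31 and 5.09, the PIP4K2B knockdown 8.56 and 8.44, and the double knockdown 11.1 and 14.7. After UV the empty vector read 50.1 and 51.0, the PIP4K2A knockdown 7.09 and 4.65, the PIP4K2B knockdown 16.7 and 15.8, and the double knockdown 21.3 and 20.8. The 4 lines did not overlap in either state and kept 1 order, with the PIP4K2A knockdown lowest, then the PIP4K2B knockdown, the double knockdown and the empty vector.

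In untreated cells IGFBP4 fell by 2.78 (SE 0.201, adjusted p = 9.40e-06, edgeR) in the PIP4K2A knockdown, by 1.92 (SE 0.195, adjusted p = 7.25e-05) in the PIP4K2B knockdown and by 1.32 (SE 0.193, adjusted p = 0.00159) in the double knockdown, all on the log2 scale. After UV it fell by 3.11 (SE 0.179), 1.64 (SE 0.165) and 1.27 (SE 0.163) on the same scale, with adjusted p from 5.64e-07 to 0.000258. The PIP4K2A knockdown thus held 6.85-fold less IGFBP4 transcript untreated and 8.63-fold less after UV. The double knockdown was 1.46 higher (SE 0.180) than the PIP4K2A knockdown untreated and 1.84 higher (SE 0.176) after UV. It was 0.60 higher (SE 0.172, adjusted p = 0.0313) than the PIP4K2B knockdown untreated, a call lost in 3 of the fits that left out 1 library, with 0.39 without double knockdown untreated replicate 2, and 0.37 higher after UV (95% interval 0.01 to 0.73, adjusted p = 0.152). IGFBP4 levels were thus further from the empty vector with the PIP4K2A hairpin alone than with both knockdowns.

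IGFBP7, a related protein with weak affinity for IGFs that is found around blood vessels and in matrix, was higher in the single knockdowns. The untreated empty vector read 5.63 scaled CPM. The PIP4K2A knockdown read 13.3 and 13.9, the PIP4K2B knockdown 16.1 and 19.1, and the double knockdown 7.62 and 8.06. After UV the empty vector read 8.23 and 8.40, the PIP4K2A knockdown 23.8 and 26.8, the PIP4K2B knockdown 26.4 and 26.6, and the double knockdown 14.8 and 14.5. The double knockdown lay between the empty vector and both single knockdowns in each state, with no overlap; the single knockdowns overlapped each other after UV only.

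IGFBP7 rose by 1.27 (SE 0.146, adjusted p = 0.000282, edgeR) in the untreated PIP4K2A knockdown and by 1.64 (SE 0.148, adjusted p = 2.59e-05) in the PIP4K2B knockdown. The untreated double knockdown differed by 0.47 (SE 0.146, adjusted p = 0.0794). After UV all 3 lines were higher, by 1.61 (SE 0.111), 1.67 (SE 0.111) and 0.82 (SE 0.112), with adjusted p from 1.13e-06 to 0.000393. The double knockdown was lower than the PIP4K2A knockdown by 0.80 (SE 0.112) untreated and 0.79 (SE 0.107) after UV on the log2 scale. It was lower than the PIP4K2B knockdown by 1.17 (SE 0.111) untreated and 0.85 (SE 0.107) after UV, all 4 differences passing the test. IGFBP7 and IGF2 were both lower in the double than in either single knockdown, but after UV the double knockdown lay above the empty vector for IGFBP7 and below it for IGF2. Over the 15 libraries the log2 levels of IGFBP7 and IGF2 had a Pearson r of 0.81, given as a description of libraries that share lines and treatment.

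IGFBP5, the abundant binding protein, differed less. It read 276 scaled CPM in the untreated empty vector, 274 and 291 in the PIP4K2A knockdown and 226 and 231 in that of PIP4K2B. The double knockdown libraries read 299 and 306. The PIP4K2B knockdown was the lowest line and the double knockdown the highest. After UV the empty vector read 302 and 300, the PIP4K2A knockdown 430 and 325, the PIP4K2B knockdown 281 and 285, and the double knockdown 411 and 413. IGFBP5 was higher in the double than in the PIP4K2B knockdown by 0.41 (SE 0.107, adjusted p = 0.0210, edgeR) untreated and by 0.54 (SE 0.107, adjusted p = 0.00337) after UV. Against the UV empty vector it was 0.45 higher (SE 0.107, adjusted p = 0.0122) in the double knockdown. In the PIP4K2A knockdown the value after UV was 0.33 (SE 0.107, adjusted p = 0.0470), a call lost in 13 of 15 fits that left out 1 library, with 0.10 without PIP4K2A knockdown UV replicate 1 and 0.51 without replicate 2. The untreated call against the PIP4K2B knockdown and the UV call against the empty vector were each lost in 4 fits that left out 1 library.

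IGFBP6, a binding protein that prefers IGF2 over IGF1, did not pass the test in any of the 10 comparisons between lines. The single knockdowns were not tested against each other. It read 8.77 scaled CPM in the untreated empty vector, 5.71 and 8.70 in the PIP4K2A knockdown and 6.04 and 5.65 in that of PIP4K2B. The double knockdown libraries read 6.44 and 7.49. The PIP4K2A knockdown replicates were as far apart as the lines. The 95% interval of the untreated PIP4K2A difference ran from -0.91 to 0.34 on the log2 scale.

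**Figure D3:**
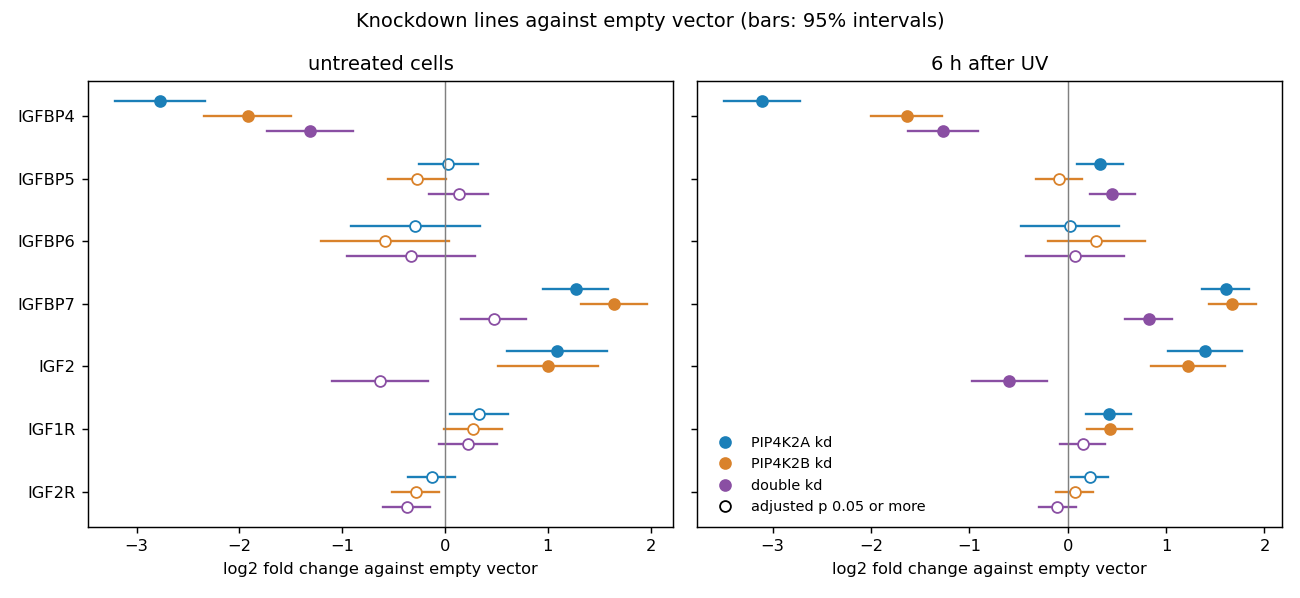
Points are log2 fold changes of each knockdown line against the empty vector, untreated on the left and after UV on the right, with 95% intervals; filled points passed the test at an adjusted p under 0.05. IGFBP4 lies left of 0 in all 6 comparisons, and IGF2 lies right of 0 in the single knockdowns and left of 0 in the double knockdown.

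Counted over the 7 tested IGF genes, 3 were called in the untreated PIP4K2A knockdown against the empty vector, where 7.84% of all 22597 genes were called. The untreated PIP4K2B knockdown also had 3, with 10.2% of all genes called, and the untreated double knockdown had 1, with 6.2%. After UV the counts were 5 in the PIP4K2A knockdown (20.3% of all genes), 4 in the PIP4K2B knockdown (19%) and 4 in the double knockdown (15.4%). The double against the PIP4K2A knockdown gave 3 untreated (7.1% of all genes) and 4 after UV (19.5%). The double against the PIP4K2B knockdown gave 4 untreated (15.4% of all genes) and 3 after UV (17.7%). IGFBP4, IGFBP7 and IGF2 supplied 27 of the 34 calls in these comparisons, and all comparisons with the empty vector share its libraries.

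IGF1R was lower after UV in all 4 lines by TMM, 3 of them past the test. IGF1R read 186 scaled CPM in the untreated empty vector and 139 and 139 after UV. In the PIP4K2A knockdown it went from 222 and 246 to 208 and 162, in the PIP4K2B knockdown from 225 and 223 to 190 and 183, and in the double knockdown from 210 and 223 to 153 and 155. Untreated and UV libraries did not overlap in any line. The log2 differences were -0.42 (SE 0.127, adjusted p = 0.0365, edgeR), -0.34 (SE 0.105, adjusted p = 0.0282), -0.26 (SE 0.105, adjusted p = 0.0734) and -0.49 (SE 0.106, adjusted p = 0.00320) in that order. The empty-vector call was lost in 10 of the fits that left out 1 library, and the PIP4K2A knockdown value was -0.17 (adjusted p = 0.119) without its UV replicate 2 and -0.56 without UV replicate 1, and that call was also lost without untreated replicate 2.

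The scaling matters for UV because the composition of the libraries shifted: TMM factors ran from 1.08 to 1.15 in untreated and from 0.873 to 0.954 in UV libraries. Scaling by library totals moved the UV log2 values of the IGF genes by a median of -0.253 to -0.328 per line, and scaling to ribosomal protein genes moved them by -0.725 to -0.905. The median of all genes moved to between -0.30 and -0.23 and between -0.90 and -0.70 in the same fits. IGF1R was lower by 0.57 to 0.82 on the log2 scale by library totals and by 1.15 to 1.36 by ribosomal protein genes. Both shifts are downward, so neither could turn a value below 0 upward. A scaling moves all genes of a comparison nearly alike, so IGF1R kept its place below the median gene by construction. IGF1R spans 316 kb of chromosome 15. Genes of over 200 kb had median UV differences of 0.03, 0.05, -0.05 and -0.01 by TMM in the empty vector, PIP4K2A, PIP4K2B and double knockdown lines, and 10.4%, 13.6%, 17.6% and 18.7% of them were called lower, against 6.77%, 12.1%, 11.8% and 13.5% of genes of up to 10 kb. The shares were higher still for genes of 50 to 100 kb, at 12.4%, 16.4%, 20.3% and 19.8%, so they did not rise steadily with length. The part of gene length in the IGF1R result was not tested.

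IGF2R was lower after UV in the empty vector, at 221 and 218 against 284 scaled CPM, a difference of -0.37 (SE 0.105, adjusted p = 0.0286, edgeR). In the knockdown lines the differences were -0.02 (95% interval -0.21 to 0.17), -0.01 (-0.20 to 0.17) and -0.10 (-0.29 to 0.09). By library totals IGF2R was lower in all 4 lines, by 0.27 to 0.63 on the log2 scale, each passing the test. The empty-vector call was lost in 4 of the fits that left out 1 library.

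IGF2, IGFBP7, IGFBP4, IGFBP6 and IGFBP5 had values above 0 after UV by the TMM scaling, but between -0.60 and 0.38 by ribosomal protein scaling, the highest being IGFBP6 in the PIP4K2B knockdown. That scaling moved the median gene down nearly as much, so all 5 kept their TMM position above it in the 4 lines, by 0.10 to 1.28. The scaling could not change that position, which is therefore no separate support. IGFBP7 rose in all 4 lines, by 0.56 (SE 0.146), 0.90 (SE 0.107), 0.59 (SE 0.106) and 0.91 (SE 0.112) in the empty vector, PIP4K2A, PIP4K2B and double knockdown lines, with adjusted p from 7.73e-05 to 0.0188 by edgeR. The empty-vector call was lost without either UV empty-vector library. Under ribosomal protein scaling the IGFBP7 values ran from -0.31 to 0.09. IGF2 rose in the 3 knockdown lines, by 0.94 (SE 0.173), 0.85 (SE 0.173) and 0.67 (SE 0.180), and its difference of 0.63 in the empty vector had adjusted p = 0.0649; the range was -0.20 to 0.10 under ribosomal protein scaling. Without PIP4K2A knockdown UV replicate 1 the IGF2 value in that line was 0.52, still past the test, and the double knockdown call was lost in 2 of the fits that left out 1 library. IGFBP4 rose in the empty vector by 0.65 (SE 0.200, adjusted p = 0.0388), in the PIP4K2B knockdown by 0.93 (SE 0.171) and in the double knockdown by 0.70 (SE 0.166), with -0.51 to 0.03 over the 4 lines under ribosomal protein scaling. The IGFBP4 difference in the PIP4K2A knockdown was 0.32, with adjusted p = 0.218. The empty-vector call of IGFBP4 was lost in 5 of the fits that left out 1 library and with a replicate block (adjusted p = 0.0599), and the double knockdown call in 1.

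IGFBP6 was 8.77 scaled CPM in the untreated empty vector and 11.4 and 11.9 after UV, a difference of 0.41 that did not pass the test. It rose in the PIP4K2B knockdown from 6.04 and 5.65 to 15.04 and 13.4 scaled CPM, by 1.28 (SE 0.238, adjusted p = 0.00138, edgeR), the largest UV difference among the 7 genes. Its PIP4K2A and double knockdown differences were 0.72 (SE 0.234) and 0.82 (SE 0.236), and under ribosomal protein scaling the 4 values ran from -0.32 to 0.38. The PIP4K2A call was lost in 8 fits that left out 1 library, with 0.23 without its UV replicate 1 and 0.44 without its untreated replicate 1, and the double knockdown call in 3. IGFBP5 rose by 0.42 (SE 0.107), 0.31 (SE 0.107) and 0.45 (SE 0.107) in the PIP4K2A, PIP4K2B and double knockdown lines by TMM, and was lower in all 4 lines, by 0.41 to 0.60 on the log2 scale, under ribosomal protein scaling. Without PIP4K2A knockdown UV replicate 1 the IGFBP5 value in that line was 0.17 (adjusted p = 0.0754, edgeR), and that call was also lost without untreated replicate 1. The IGFBP5 call in the PIP4K2B knockdown was lost in 11 fits that left out 1 library. By library totals all of IGFBP4, IGFBP6, IGFBP7 and IGF2 were still higher in the 4 lines, from 0.07 to 0.98.

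**Figure D4:**
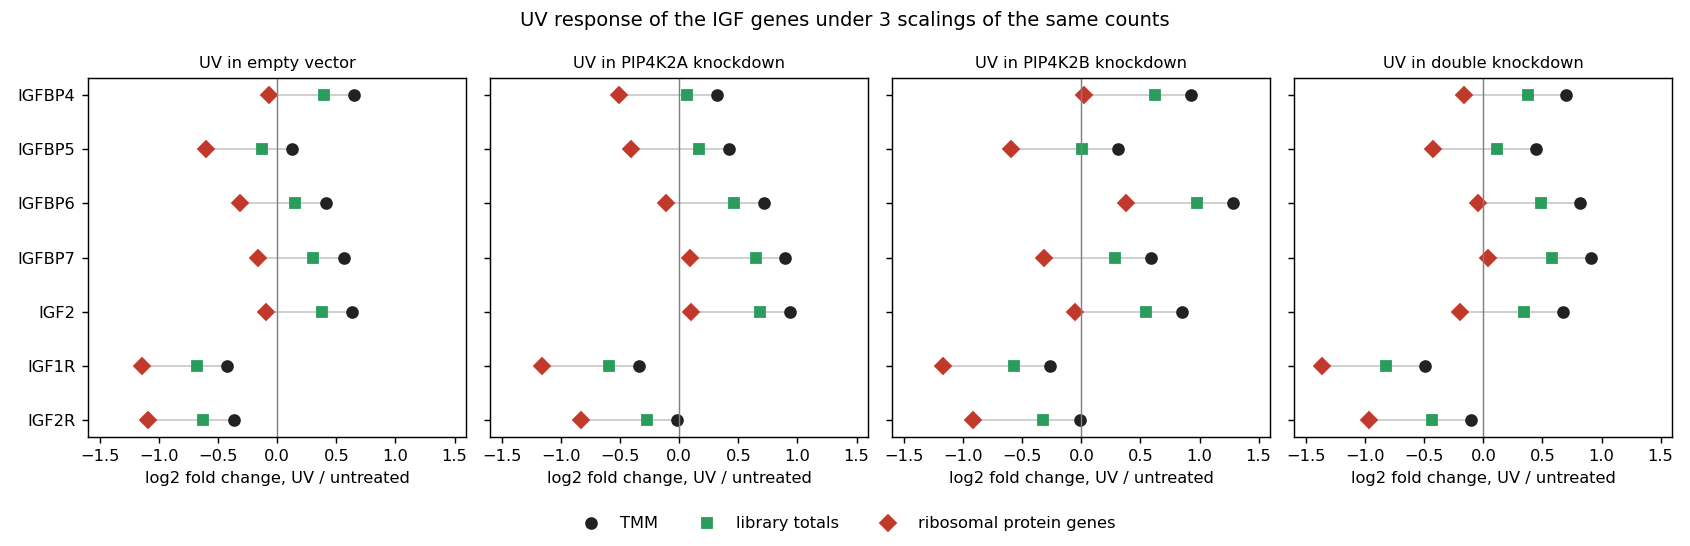
Each panel gives the log2 UV difference of the 7 genes in 1 line under 3 scalings of the same counts: TMM, library totals and ribosomal protein genes. IGF1R lies left of 0 under all 3 in every line, while the values of the binding proteins and IGF2, all right of 0 by TMM, lie between -0.60 and 0.38 by ribosomal protein scaling. In each line the other scalings move the values of all 7 genes to the left.

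By TMM, 4 of the 7 IGF genes were called with UV in the empty vector, where 18.5% of all genes were called. Of these, 2 were higher and 2 lower, against 8.67% and 9.82% of all genes. In the PIP4K2A knockdown 5 were called (30.6% of all genes), 4 higher and 1 lower (16.6% and 14% of all genes). In the PIP4K2B knockdown 5 were called (32.9% of all genes), 5 higher and 0 lower (17.5% and 15.4%). In the double knockdown 6 were called (35.2% of all genes), 5 higher and 1 lower (19.1% and 16.1%). The median of the 7 genes was 0.41, 0.42, 0.59 and 0.68 in these lines, against 0.02, 0.01, 0.00 and 0.02 over all genes. With either UV empty-vector library left out, 1 library stood against 1 in that line and the edgeR count was 0.

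The UV response of the IGF genes was not shown to differ between the empty vector and any knockdown line. The interaction test in edgeR called 0 of the 7 genes for each of the 3 knockdown lines, where it called 0.00885%, 0% and 0.00885% of all genes. At an unadjusted p under 0.05 it gave 1, 2 and 0 of the 7 IGF genes for the PIP4K2A, PIP4K2B and double knockdown lines. Of all 22597 genes, 1109, 1655 and 1209 met that threshold. DESeq2 also called 0 IGF genes in each. IGFBP6 in the PIP4K2B knockdown had the largest difference, a response 0.87 higher than in the empty vector (95% interval 0.08 to 1.67, adjusted p = 0.672). In the same line IGF2R had a difference of 0.36 (95% interval 0.06 to 0.65, adjusted p = 0.672). Without PIP4K2A knockdown UV replicate 2 the differences for that line were 0.61 for IGF2, 0.46 for IGF2R and 0.48 for IGFBP5. Without replicate 1 they were -0.12, 0.20 and 0.04.

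The wider pathway was followed in 62 further genes, of which 55 passed the filter. Against the untreated empty vector, 1 was higher and 9 lower in the PIP4K2A knockdown, 5 higher and 11 lower in the PIP4K2B knockdown, and 3 higher and 6 lower in the double knockdown. Of all genes, 3.71% were higher and 4.13% lower in the PIP4K2A knockdown, 5.26% and 4.99% in that of PIP4K2B, and 3.24% and 2.96% in the double knockdown. Their median differences were -0.05, -0.08 and -0.05, against 0.01, -0.00 and -0.01 over all genes. Among the receptors, INSR, the insulin receptor that can pair with IGF1R, fell by 0.61 (SE 0.165, adjusted p = 0.0418, edgeR) on the log2 scale in the PIP4K2A knockdown, from 12.7 to 8.35 ± 1.58 scaled CPM (SD, n = 2). It was the 1 called gene of 4 tested in its list in that line. In the PIP4K2B and double knockdowns edgeR called 0 and 0, with 1 and 0 at an unadjusted p under 0.05. Of all 22597 genes, 5387 and 4350 met that unadjusted threshold.

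Of 9 proteases that cut binding proteins and their inhibitors, 3 were called in the PIP4K2A knockdown, 4 in the PIP4K2B knockdown and 2 in the double knockdown, untreated, against 7.84%, 10.2% and 6.2% of all genes. PAPPA, the protease that cuts IGFBP4, read 11.1 scaled CPM in the empty vector and rose to 17.7 ± 1.75 (SD, n = 2) in the PIP4K2A knockdown and 22.4 ± 1.37 in that of PIP4K2B. The PAPPA differences were 0.68 (SE 0.137, adjusted p = 0.00999, edgeR) and 1.02 (SE 0.138, adjusted p = 0.000607). STC1, a secreted inhibitor of PAPPA, fell by 0.96 (SE 0.181) and by 1.18 (SE 0.182) on the log2 scale in the same lines, from 12.8 scaled CPM to 6.56 ± 0.723 and 5.63 ± 0.0191. In untreated cells PAPPA was thus higher and its inhibitor lower in both lines where IGFBP4 transcript was lowest. After UV STC1 was lower in the double knockdown too, at -0.80 (SE 0.150, adjusted p = 0.0033, edgeR), where PAPPA differed by 0.04 from the empty vector. A link to the IGFBP4 levels was not tested. In the untreated double knockdown PAPPA read 12.9 ± 0.0322 and did not pass the test, and it was lower than in the single knockdowns by 0.46 and 0.80 on the log2 scale. There PAPPA2, a related protease that cuts IGFBP5, fell by 0.93 (SE 0.157, adjusted p = 0.00376), from 8.39 to 4.39 ± 0.375 scaled CPM. ADAM12, a metalloprotease reported to cut IGFBP3 and IGFBP5, fell by 0.58 on the log2 scale in the PIP4K2B knockdown and rose by 0.45 in the double knockdown.

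Of 7 tested genes for other proteins with an IGFBP domain, 2, 5 and 2 were called in the PIP4K2A, PIP4K2B and double knockdown lines, untreated (7.84%, 10.2% and 6.2% of all genes). CCN4, a matricellular protein of the Wnt pathway, fell in all 3, by 1.10 (SE 0.158), 1.89 (SE 0.161) and 0.84 (SE 0.157) on the log2 scale, from 14.3 scaled CPM to 6.69 ± 0.541, 3.87 ± 0.0508 and 8.01 ± 0.956 (SD, n = 2). ESM1, a secreted proteoglycan known from endothelium, rose by 1.92 (SE 0.419, adjusted p = 0.0112, edgeR) in the PIP4K2B knockdown, from a low level of 0.380 scaled CPM to 1.45 ± 0.106. KAZALD1, a secreted protein of bone, fell by 0.87 and 1.19 on the log2 scale in the PIP4K2A and PIP4K2B knockdowns.

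Of 12 tested receptor adaptors and brakes, 3, 4 and 2 were called in the 3 untreated lines, where 7.84%, 10.2% and 6.2% of all genes were. SOCS1, a feedback inhibitor of cytokine and insulin signalling, fell in each, by 1.37 (SE 0.137), 1.39 (SE 0.137) and 0.54 (SE 0.136) on the log2 scale, from 22.0 scaled CPM to 8.52 ± 0.892, 8.39 ± 0.988 and 15.1 ± 0.306 (SD, n = 2). GRB10, an adaptor that restrains insulin and IGF receptors, fell by 0.68 in the PIP4K2A and by 0.57 in the double knockdown. Of 14 genes of the PI3K, AKT and mTOR relay, edgeR called 0 in the PIP4K2A knockdown, with 2 at an unadjusted p under 0.05. That unadjusted threshold was met by 4860 of all 22597 genes. In the double knockdown RHEB, the activator of mTOR, rose by 0.66 on the log2 scale. TMEM219, a receptor for IGFBP3, fell in all 3 lines, by 0.54, 0.40 and 0.41. HMGA2, which raises IGF2BP2 expression, was lower in the double knockdown than in the PIP4K2A knockdown by 0.86 on the log2 scale (SE 0.109, adjusted p = 0.000481).

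After UV in the empty vector 7 of the 55 pathway genes were higher and 7 lower, against 8.67% and 9.82% of all genes, with a median of 0.15 against 0.02 over all genes. PIK3R1, the regulatory subunit of PI3K, fell from 38.9 to 13.2 ± 0.477 scaled CPM (SD, n = 2), a difference of -1.56 (SE 0.140, adjusted p = 1.69e-05, edgeR). LIN28B, an RNA-binding protein that blocks let-7 and can bind IGF2 mRNA, fell from 20.2 to 4.23 ± 0.652, and HMGA2 from 37.1 to 15.6 ± 2.48, differences of -2.25 (SE 0.223) and -1.25 (SE 0.132). SOCS3, another feedback inhibitor, fell by 1.502 (SE 0.167) on the log2 scale. The shifts of the other scalings given above are downward, the direction of these 4 differences. H19 rose by 1.03 (SE 0.319, 95% interval 0.34 to 1.72, adjusted p = 0.0406 by edgeR), from 2.21 to 4.55 ± 0.943. The median ribosomal protein shift of the IGF genes in this line was -0.725, and the H19 interval reaches below that size. The H19 value under that scaling is not reported here. Of the 9 proteases and inhibitors and the 4 other ligands and receptors, edgeR called 0 in the empty vector after UV. At an unadjusted p under 0.05 there was 1 of each, and 7250 of all 22597 genes.

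For each tested member, the 3 genes whose log2 levels were most alike over the 15 libraries were taken from 11286 genes with a mean of at least 5 CPM. For IGFBP4 they were CA12 (r = 0.97), TMEM255B (0.96) and FGF11 (0.96). For IGFBP7 they were CPE (0.98), IL32 (0.97) and LSG1 (0.97), and for IGF2 they were ELK3 (0.98), UNC13D (0.96) and ADCY1 (0.96). For IGFBP5 they were CTSF (0.96), ACO1 (0.96) and CDA (0.95). IGFBP6 was most like PRKACA (0.98), UBB (0.97) and MYL6B (0.97). IGF1R was most like MEAK7 (0.98), NR2F2 (0.97) and KAZN (0.96). IGF2R had the weakest likenesses, to APCDD1L-DT (0.89), ARID1B (0.88) and EPHB3 (0.84). Among the members themselves IGFBP4 and IGF1R had the most negative r, -0.72. These values describe 15 libraries that share 4 lines and 2 treatments and carry no test.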

How the data were processed

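Libraries were directional and made from total U2OS RNA after ribosomal RNA removal, per the labels' protocols. STAR, RSEM, SAMtools and the build GRCh38 are named in the submitters' processing notes. Their versions and settings, the strand setting of the counting and the annotation release were not given in the sources used here. The authors deposited 1 gene table per library, with expected counts, which RSEM estimates by sharing out ambiguous reads, with TPM values and with transcript-weighted lengths. Reads shared between overlapping genes may be split by that estimate.

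Expected counts were rounded. Genes with low counts were removed (filterByExpr, minimum count 10), libraries were scaled by TMM, and edgeR 4.0.16 quasi-likelihood tests with 8 groups were run in R 4.3.3 over 15 libraries, with Benjamini-Hochberg adjustment over 22597 genes at 0.05. The biological coefficient of variation was 11.3%. Depth was 28.0 to 39.9 M counts per library; intervals of 95% on fold changes come from the same fit. The script was tested on simulated data. The alternatives were DESeq2 1.42.0 with its own size factors and test, and edgeR with other settings. Those settings were other scalings (RLE, library totals, 76 ribosomal protein genes), other filters, all 16 libraries, only the groups compared, a replicate block, and leaving out each library. Library totals were added after seeing the data. The TPM values of the authors served only to compare genes. Promoters came from RefSeq, which matched 7 of the 9 genes.

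The 9 genes and all lists were chosen with earlier results of these data known. Named genes are all 9 members; from each pathway list, up to 4 genes past the test with the largest change with UV in the empty vector and in each untreated knockdown against it, and up to 2 elsewhere; and 3 most alike genes per member. Some genes that the rule names are not reported here.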

Additional observations from a re-analysis of the deposited data

Results flagged for a closer look

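The library labelled empty-vector untreated replicate 1, which entered only the fit of all 16 libraries, held transcripts of both binding proteins that were at the counting floor elsewhere. IGFBP2 had 79 counts there, 61.8 CPM (95% Wilson interval 49.6 to 77.0, counting error only), against 0.0349 CPM in empty-vector untreated replicate 2. IGFBP3 had 21 counts, 16.4 CPM (95% Wilson interval 10.7 to 25.1), against 0.0699 CPM in replicate 2. In the other 15 libraries IGFBP2 reached at most 0.0714 CPM and IGFBP3 at most 0.0947 CPM. In the same library IGFBP5 read 59.5 CPM against 305 in replicate 2, IGF1R 61.0 against 205 and IGF2R 130 against 313, while IGF2 read 34.4 against 36.0. PIP4K2A read 15.65 CPM there against 62.93 in replicate 2, PIP4K2B 91.53 against 107.1 and the related gene PIP4K2C 18.77 against 56.89. The source of these differences was not tested.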

How the results depend on the processing

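Counts below are of the 7 tested IGF genes called. For most fits in this section, including those that left out 1 library, the share of all genes called is not reported here. Such counts therefore do not show whether the IGF genes stood out. With all 16 libraries the counts were 0 with UV in every line; 1, 1 and 0 in the untreated PIP4K2A, PIP4K2B and double knockdowns against the empty vector; 2, 1 and 0 after UV; and 0 in the double against either single knockdown, except 1 against PIP4K2B after UV. IGF1R and IGF2R with UV in the empty vector then turned to 0.34 and 0.32. Fitting only the groups compared, with fewer libraries, gave 1 with UV in the PIP4K2A knockdown, 6 and 4 in the untreated PIP4K2B and double knockdowns, 3 in the PIP4K2A knockdown after UV, 2 in the double against PIP4K2A after UV and 6 against PIP4K2B. Library totals gave 2 with UV in the empty vector, where 584 of 22597 genes were called higher and 4296 lower. With UV in the double knockdown they gave 3, where 1276 genes were higher and 6765 lower. Ribosomal protein scaling gave 3 with UV in the PIP4K2B knockdown, where 125 of 22597 genes were called higher and 15081 lower. With UV in the double knockdown it gave 3, where 133 genes were higher and 14607 lower. In the untreated double knockdown against the empty vector it gave 3. That last count was 2 with no count filter (9 genes tested), with CPM above 1 in 2 libraries, and by DESeq2. Under ribosomal protein scaling the UV values turned to -0.072 for IGFBP4, -0.60 for IGFBP5 and -0.16 for IGFBP7 in the empty vector; -0.51, -0.41 and -0.11 for IGFBP4, IGFBP5 and IGFBP6 in the PIP4K2A knockdown; -0.59, -0.31 and -0.053 for IGFBP5, IGFBP7 and IGF2 in the PIP4K2B knockdown; and -0.16, -0.42, -0.048 and -0.20 for IGFBP4, IGFBP5, IGFBP6 and IGF2 in the double knockdown. That scaling moved the median of all genes to between -0.90 and -0.70, and IGFBP4, IGFBP5, IGFBP6, IGFBP7 and IGF2 lay above that median in all 4 lines, as by TMM. Because all genes move nearly alike, the scaling could not change that position. The cause of the other changes was not tested. The sign of values that passed in neither fit was not compared.

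Leaving out each library in turn gave 0 to 5 with UV in the empty vector, 3 to 5 in the PIP4K2A knockdown, 4 to 6 in the PIP4K2B knockdown and 4 to 6 in the double knockdown. Untreated against the empty vector it gave 3 to 4, 3 to 6 and 1 to 4 for the PIP4K2A, PIP4K2B and double knockdowns, and after UV 3 to 6, 3 to 4 and 2 to 4. The double against PIP4K2A gave 3 to 4 untreated and 3 to 5 after UV, and against PIP4K2B 2 to 4 and 3 to 5. The difference in UV response gave 0 to 3 for PIP4K2A and 0 for the other lines. No value exists for the untreated empty vector without its only library. IGFBP4 below the empty vector held in all 6 comparisons under every such fit, between -3.45 and -1.12.

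Replicate numbers did not pair the libraries: over 21 pairs of 7 groups, correlations of same-numbered deviations ran from -0.41 to 0.603 (median -0.0025). With a replicate block, counts were 3, 5, 4 and 6 with UV, 3, 3 and 1 untreated and 4, 4 and 3 after UV against the empty vector, and 3, 4, 4 and 3 in the double against single knockdowns. IGFBP4 with UV in the empty vector (adjusted p = 0.0599), IGFBP5 with UV in the PIP4K2B knockdown (0.0512), IGFBP5 in the PIP4K2A knockdown after UV (0.0605) and IGF2 in the double knockdown after UV (0.0532) then missed the threshold. IGFBP2 and IGFBP3 lay at the counting floor, so no difference in them was detectable at this depth.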
